A study of Daphnia magna with 27 samples.

Results

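Zinc-exposed adults of the water flea Daphnia magna were compared with unexposed adults of the same generation across all 2220 reporters tested in the authors' deposited table for this contrast, of 2261 reporters on the array. A reporter is a spotted cDNA fragment of D. magna, and 40 of the 2261 carry a name. The tested animals (ZnF0) were kept in M4 medium whose zinc was set to 388 µg/L and were 23 days old at sampling. The controls (CtrlF0) were kept in the same medium without that adjustment and were 20 days old. Both groups came from 1 batch of newborns of clone K6 that was split between the media, and each has 3 samples in the labels, each a pool of 10 whole adults. Age and zinc differ together between the groups and cannot be told apart in this contrast. Controls of the next generation (CtrlF1), 22 days old and also 3 samples, are set beside them, since their age is nearer to that of ZnF0. A pair of groups 2 generations on from F0, Zn(+)F2 (zinc at 388 µg/L in this and the preceding generations, 21 days old) and CtrlF2 (20 days old), gave a further zinc contrast with arrays of its own, 3 samples a group. Sequences of the reporters were not used here.

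Each sample was hybridised with a reference pool of RNA from 60 daphnids of 6 days, 60 of 13 days and 60 of 21 days, and a value below is the log2 ratio of the sample to that pool. The samples of ZnF0, CtrlF0 and CtrlF1 were all labelled with Cy5. The values deposited for CtrlF0 samples 1 and 3 were the same: 2066 reporters had a value in both, 1 of them differed, by 0.00026, and the same reporters were missing. They were counted as 1 array, so the contrast rested on 3 ZnF0 arrays and 2 CtrlF0 arrays. The arrays of ZnF0, CtrlF0 and CtrlF1 held 2066 to 2210 values each, with array medians between -0.03 and 0.04. Across reporters, ZnF0 arrays correlated with each other at r = 0.68 to 0.80 and the CtrlF0 arrays at 0.51. ZnF0 arrays correlated with CtrlF1 arrays at 0.36 to 0.75, and with CtrlF0 arrays at only -0.09 to 0.19. In pools of whole animals, fewer cells of a type and less RNA per cell cannot be told apart.

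Zinc is an essential metal that enters many enzymes and is toxic to daphnids in excess. Adult daphnids in culture reproduce clonally, and the yolk protein precursor vitellogenin is loaded into each clutch of eggs. Metallothioneins are small proteins that bind zinc and copper, and ferritin stores iron; both are commonly measured in animals exposed to metals. Adult daphnids moult and lay clutches in repeated cycles.

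In zinc-exposed daphnids, 158 reporters were higher and 72 lower than in first-generation controls in a limma fit on the values per array (Benjamini-Hochberg adjusted p under 0.05). They were 11.5 percent of the 1993 reporters with at least 2 values in each group, 7.93 percent higher and 3.61 percent lower. The higher reporters had a median log2 change of 1.07, a 2.10-fold change, and the lower ones a median of -0.78, a 1.71-fold change. Among the named reporters, 1 reporter named cyplasin s was lower and none was higher. The authors' deposited table for the same contrast called 738 reporters, 33.2 percent of those tested, with 374 higher (16.8 percent) and 364 lower (16.4 percent). The count per array was small without some arrays: 41 without ZnF0 array 1, 0 without ZnF0 array 3 and 0 without the doubled CtrlF0 array, where 478 and 404 reporters had an unadjusted p under 0.05 in the last pair of limma fits. The split depended on the fit: quantile normalization gave 176 higher and 154 lower, and a fit over all groups of the series with dye as a term gave 28 higher and 83 lower.

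The deposited changes and the changes per array were close in size and differed in how many were called. Over the 1993 reporters tested in both, they correlated at r = 0.96, a correlation over reporters and not over samples, and 1402 reporters lay within 0.1 of each other. All 221 reporters called in both had the same sign. These were 96.1 percent of the calls per array, and 31.1 percent of the 710 calls of the authors' deposited table among the same reporters. The direction, ZnF0 over CtrlF0, is read from the name of the deposited table, and neither that table nor the value table states it. The standard error, computed as the change over t in the authors' deposited table, had a median of 0.153, against 0.174 for the values per array. The degrees of freedom, recovered from t and p in the authors' deposited table, ran from 3.88 to 19.9 over reporters. The arrays of this contrast alone cannot give so wide a range. The deposited p-values thus rest on further observations whose kind is not stated, and are not p-values over the samples of this contrast alone. The plot of deposited changes against changes per array shows the calls lost per array lying on the same line as those kept.

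**Figure D1:**
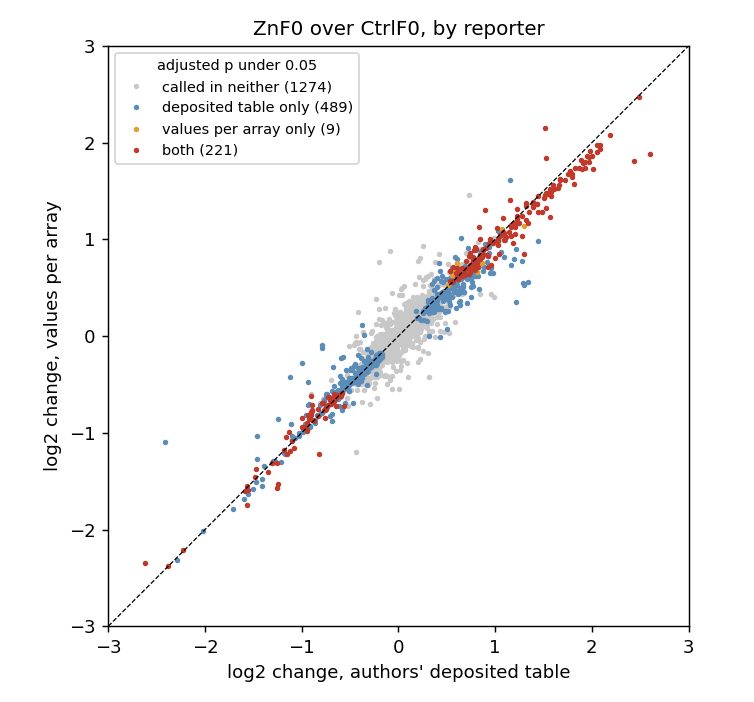
Log2 change of ZnF0 over CtrlF0 for each of the 1993 reporters tested in both, with the authors' deposited table on the x axis and the fit on values per array on the y axis; the dashed line marks equal values. Colours give where the adjusted p was under 0.05: 221 reporters in both, 489 in the deposited table only, 9 in the values per array only.

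The yolk reporter named vtg precursor (EBT_DamaRep_ASP1 H2) was high in every zinc-exposed array; vtg is the usual abbreviation of vitellogenin. Its log2 ratio was 0.65, 0.53 and 0.56 in ZnF0, against 0.15 and -0.04 in CtrlF0 and -0.42, 0.02 and 0.14 in CtrlF1. The zinc-exposed arrays lay above all control arrays of both generations with no overlap. The same held for 8.26 percent of the 1900 reporters with a value in all arrays of the 3 groups. The authors' deposited table gave a change of 0.67 with adjusted p = 4.67e-06, a 1.59-fold change. Per array the change was 0.52 ± 0.15 (SE), which did not pass in limma (adjusted p = 0.0606). Against CtrlF1 it was 0.67 ± 0.16, which did not pass either (limma, adjusted p = 0.153). The other 2 reporters named vtg had changes of 0.27 and 0.14 in the authors' deposited table and did not pass. In F2 vtg precursor stood at 1.07 and 0.99 in the Cy5 arrays of Zn(+)F2, against 0.66 in the Cy5 array of CtrlF2. It stood at 0.15 in the Cy3 array of Zn(+)F2, against -0.50 and -0.10 in the Cy3 arrays of CtrlF2. It was thus higher with zinc within either dye, and the change with dye in the fit, 0.41 ± 0.16, did not pass (limma, adjusted p = 0.499).

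Cyplasin is a cytotoxic protein first known from sea hares, and 5 reporters are named cyplasin s. One of them, EBT_DamaRep_ASP8 F6, was the named reporter that fell both in the authors' deposited table and per array. Its log2 ratio was -0.69, -0.60 and -0.48 in ZnF0, against 0.10 and 0.08 in CtrlF0 and -0.54, -0.47 and -0.49 in CtrlF1. ZnF0 lay below both CtrlF0 arrays, and overlapped with CtrlF1. Of the 1900 reporters with a value in all arrays of the 3 groups, 22.6 percent lay below both CtrlF0 arrays in ZnF0. The change was -0.69 with adjusted p = 6.62e-07 in the authors' deposited table, a 1.62-fold fall. Per array it was -0.68 ± 0.14 (SE; limma, adjusted p = 0.0310). The call was lost without ZnF0 array 1 (limma, adjusted p = 0.128). It was also lost without ZnF0 array 3, in a fit that called no reporter at all. Without CtrlF0 array 1 or 2, which leaves 1 CtrlF0 array, the change was -0.67 or -0.69. Against CtrlF1 the change was -0.09 ± 0.11 (limma, adjusted p = 0.811). The remaining 4 cyplasin s reporters had changes of 0.10 to 0.67 in the authors' deposited table, opposite in sign to EBT_DamaRep_ASP8 F6, and none passed. Of these 4, 3 were among the dimmest 25 percent of reporters by average expression.

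The named cell division and chromatin reporters that the authors' deposited table called were both lower with zinc. Cyclin B3, a regulator of entry into and progress through cell division, is represented by the reporter cyclin b3 (EBT_DamaRep_ASP5 B5). It had 0.06, 0.12 and -0.21 in ZnF0, against 0.26 and 0.30 in CtrlF0 and 0.20, -0.07 and -0.04 in CtrlF1. ZnF0 lay below both CtrlF0 arrays, as in 22.6 percent of reporters with complete values, and overlapped with CtrlF1. The change was -0.32 (adjusted p = 0.0196) in the authors' deposited table and -0.29 ± 0.16 per array, which did not pass (limma, adjusted p = 0.283). The other cyclin reporter, cyclin b, had -0.15 in the authors' deposited table and 0.03 per array, and passed in neither.

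Nucleosome assembly proteins are chaperones that place histones on DNA. The reporter named nucleosome assembly (EBT_DamaRep_ASP1 C1) had -0.09, -0.16 and -0.29 in ZnF0, against 0.21 and 0.21 in CtrlF0 and 0.18, -0.03 and -0.23 in CtrlF1. All ZnF0 arrays were below both CtrlF0 arrays, as in 22.6 percent of reporters with complete values, and overlapped with CtrlF1. The change was -0.38 (adjusted p = 0.000680) in the authors' deposited table and -0.39 ± 0.14 per array (limma, adjusted p = 0.122). Histone deacetylase, which removes acetyl groups from histones, and chromobox, named after proteins that bind methylated histones, had positive changes of 0.36 and 0.13 in the authors' deposited table. Neither passed. ZnF0 array 3 stood apart for histone deacetylase, with -0.06, -0.10 and 0.62 over the 3 ZnF0 arrays, against -0.26 and -0.06 in CtrlF0.

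The reporter named kinase (EBT_DamaRep_ASP8 D5), with no kind of kinase given, was the other named reporter called higher in the authors' deposited table, by 0.37 (adjusted p = 0.0194). Its values were 0.39, 0.14 and 0.36 in ZnF0, against 0.10 and -0.01 in CtrlF0 and -0.07, -0.26 and 0.12 in CtrlF1. ZnF0 lay above all of these control arrays, as in 8.26 percent of reporters with complete values. Per array the change was 0.25 ± 0.15 (limma, adjusted p = 0.334), and against CtrlF1 it was 0.36 ± 0.14 (limma, adjusted p = 0.329); neither passed.

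**Figure D2:**
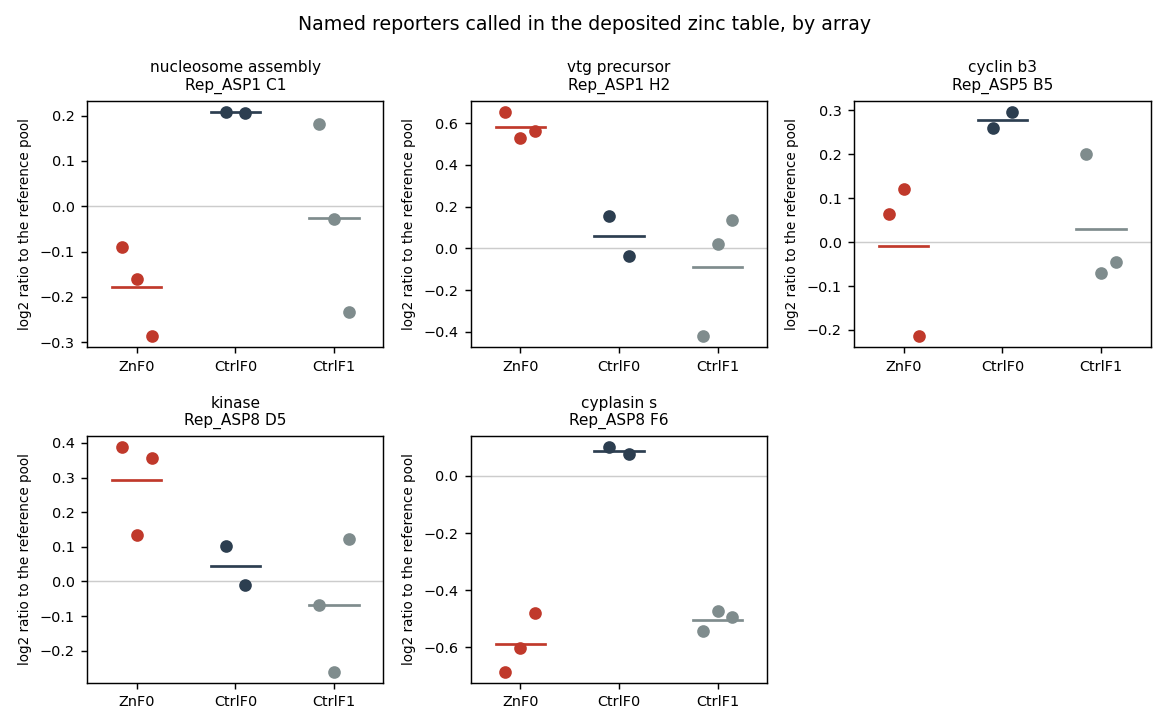
Log2 ratio to the reference pool in each array (points; y axis) of ZnF0 (3 arrays), CtrlF0 (2 arrays) and CtrlF1 (3 arrays), with group means as lines, for the 5 named reporters called in the authors' deposited table. Vtg precursor and kinase lay above all control arrays in ZnF0, and cyplasin s in ZnF0 (-0.69 to -0.48) overlapped with CtrlF1 but not with CtrlF0.

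No reporter of the metal-binding and iron group passed, in the authors' deposited table or per array. Of 10 reporters named Mta, Mtb or ferritine, 7 were tested. Their changes ran from -0.20 to 0.10 in the authors' deposited table, with a smallest adjusted p of 0.0662 (ferritine oud, -0.15). Per array they ran from -0.14 to 0.14, with a smallest adjusted p of 0.579 (limma). Over all reporters tested, 33.2 percent passed in the authors' deposited table and 11.5 percent per array. Mta and Mtb are taken here as metallothioneins, though no label or file says so. Of the 7, 4 were among the dimmest 25 percent of reporters. The brightest, ferritine oud, had -0.35, -0.08 and -0.27 in ZnF0, against -0.07 and -0.14 in CtrlF0 and 0.14, 0.05 and 0.07 in CtrlF1. Its ZnF0 values overlapped with CtrlF0 and lay below CtrlF1, as in 7.79 percent of reporters with complete values. Its change per array was -0.13 ± 0.15 (limma, adjusted p = 0.610). Mta oud had 0.13, -0.02 and 0.17 in ZnF0, against -0.04 and 0.07 in CtrlF0, and Mtb oud had 0.00, -0.18 and -0.05, against -0.32 and 0.09. Both overlapped with the controls.

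The remaining named groups held no call in the authors' deposited table or per array. Of the 5 energy and metabolism reporters, the adenine nucleotide translocase reporter (ad nucl translocase), which carries ADP and ATP across the inner mitochondrial membrane, had the smallest adjusted p, 0.0675 with a change of 0.25 in the authors' deposited table. GAPDH2, named after a glycolytic enzyme, stayed at 0.00 ± 0.15 per array. The 4 ribosomal reporters ran from -0.23 to 0.38 in the authors' deposited table. Rib 40S and rib 16S (EBT_DamaRep_ASP1 B5), both dim, had the largest changes per array among these, 0.77 ± 0.34 and 0.59 ± 0.34, and neither passed. In each, 1 CtrlF0 array was low, with -1.13 and 0.13 for rib 40S. Peroxinectin, a blood-cell adhesion protein with peroxidase activity in crustaceans, had 0.12 ± 0.15 per array, tubuline -0.06 ± 0.15 and retinol dehydr oud -0.20 ± 0.16; none passed. Over all 34 named reporters tested, 2 were higher and 3 lower in the authors' deposited table, against 16.8 and 16.4 percent of all reporters. The median change of the 34 was 0.01 in that deposited table, and 0.02 for all reporters tested.

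The largest changes were in reporters that carry an identifier and no name. EBT_DamaMol_ASP2 H4 had 2.85, 2.47 and 2.84 in ZnF0, against 0.14 and 0.36 in CtrlF0 and 1.09, 2.06 and 1.77 in CtrlF1. It was above every control array of both generations, with a change of 2.47 ± 0.18 against CtrlF0 (limma, adjusted p = 0.00441). Against CtrlF1 the change was 1.08 ± 0.25, which did not pass (limma, adjusted p = 0.140). In F2 the reporter had 1.75 and 2.07 (Cy5) and 1.47 (Cy3) in Zn(+)F2, against 0.95 and 0.70 (Cy3) and -0.05 (Cy5) in CtrlF2. These again did not overlap, and the change of 1.30 ± 0.35 did not pass (limma, adjusted p = 0.423). How many of all reporters had no overlap in F2 was not counted.

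EBT_DamaMol_ASP3 H5 had 0.99 and 1.89 in the 2 ZnF0 arrays with a value, against -0.47 and -0.41 in CtrlF0 and 0.66, 1.39 and 1.92 in CtrlF1. It was higher than CtrlF0 by 1.88 ± 0.30 (limma, adjusted p = 0.0196), and differed from CtrlF1 by 0.12 ± 0.40 (limma, adjusted p = 0.938). The ZnF0 and CtrlF1 arrays shared the same range.

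Among reporters that fell, EBT_DamaMol_ASP8 D4 had -2.92, -0.81 and -2.46 in ZnF0, against 0.30 and 0.27 in CtrlF0 and -0.44, -0.75 and -0.66 in CtrlF1. The zinc-exposed arrays were below every control array and spread widely, and the change was -2.35 ± 0.55 (limma, adjusted p = 0.0428). EBT_DamaMol_ASP6 A3 had -1.77, -0.53 and -1.22 in ZnF0, against 1.20 and 1.20 in CtrlF0 and 0.04, -0.51 and -0.23 in CtrlF1. Its change was -2.37 ± 0.33 (limma, adjusted p = 0.0112). In both, CtrlF1 stood between ZnF0 and CtrlF0. In F2 EBT_DamaMol_ASP8 D4 had -0.44, -0.71 and -0.76 in Zn(+)F2, against 0.23, 0.22 and 0.51 in CtrlF2, while EBT_DamaMol_ASP6 A3 had 1.44, 0.80 and 1.05 in Zn(+)F2, against 0.45, 0.61 and 1.13 in CtrlF2. The first was lower with zinc without overlap over arrays of both dyes, and the second was not. Neither passed in F2, and how many of all reporters had no overlap there was not counted. Without ZnF0 array 1, the call per array of EBT_DamaMol_ASP8 D4 was lost (limma, adjusted p = 0.117). Those of EBT_DamaMol_ASP2 H4 and EBT_DamaMol_ASP6 A3 were kept. EBT_DamaMol_ASP3 H5 has no value in that array, so leaving it out cannot try its call. The fit without ZnF0 array 3 called no reporter at all, so a call lost there is not particular to these reporters. Without the doubled CtrlF0 array, 1 CtrlF0 array is left, and only sizes are given. EBT_DamaMol_ASP2 H4 then had 2.35, EBT_DamaMol_ASP3 H5 1.85, EBT_DamaMol_ASP8 D4 -2.33 and EBT_DamaMol_ASP6 A3 -2.38.

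**Figure D3:**
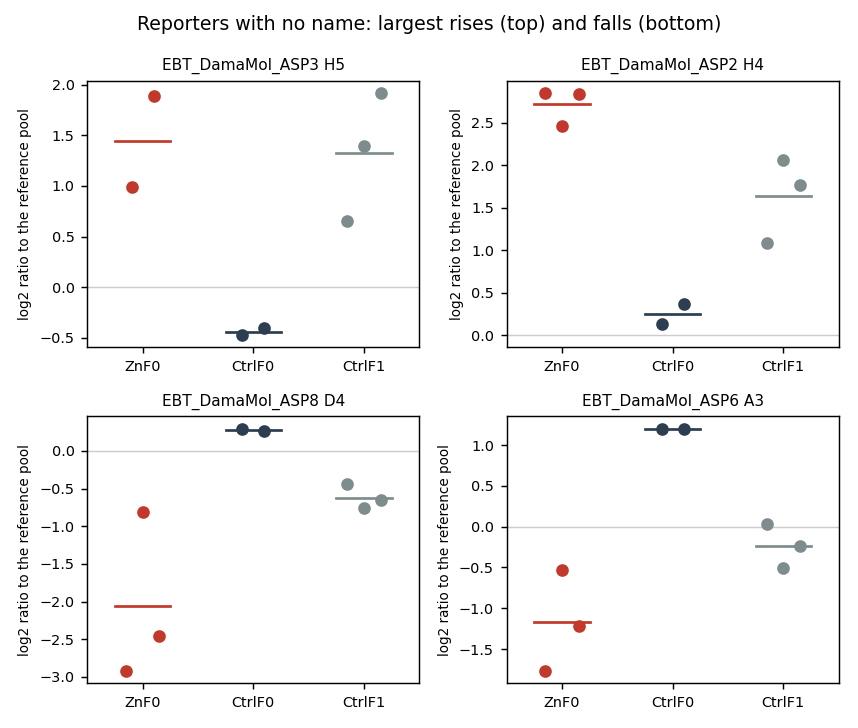
Log2 ratio to the reference pool in each array (points; y axis) of ZnF0, CtrlF0 and CtrlF1, with group means as lines, for the reporters without a name that had the largest rise (top row) and fall (bottom row) in the authors' deposited table. The CtrlF1 arrays lay on the ZnF0 side of CtrlF0 in all 4 panels.

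The 230 reporters called per array can be followed through every array by their medians. The median log2 ratio of the 158 higher reporters was 0.91, 0.54 and 0.87 in the ZnF0 arrays, against -0.42 and -0.27 in the CtrlF0 arrays and 0.28, 0.59 and 0.73 in the CtrlF1 arrays. The 72 lower reporters had medians of -0.62, -0.41 and -0.57 in ZnF0, against 0.30 and 0.15 in CtrlF0 and -0.32, -0.39 and -0.34 in CtrlF1. Over all 1993 reporters tested, the CtrlF1 medians were -0.00, -0.01 and -0.02. In the higher set, 2 of the 3 CtrlF1 medians lay above that of ZnF0 array 2, so the sets do not separate ZnF0 from CtrlF1. The ZnF0 and CtrlF0 values chose the reporters, and a set chosen for its distance from CtrlF0 puts other groups on the far side of CtrlF0 as well. The values in the plot of called reporters by array, and those of the 4 unnamed reporters, are therefore a description, and nothing is read from the side on which CtrlF1 lies.

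**Figure D4:**
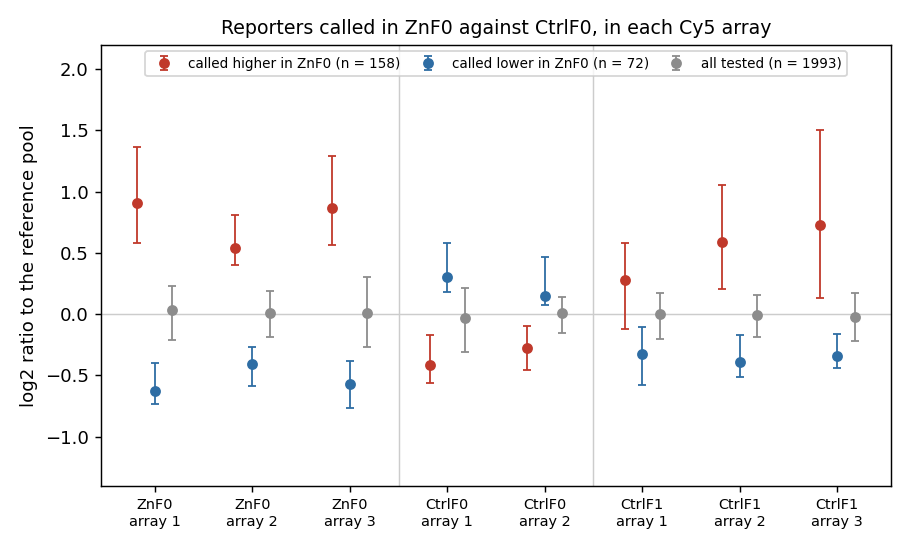
Median (points) and lower and upper quartile (bars) of the log2 ratio to the reference pool in each array of ZnF0, CtrlF0 and CtrlF1, for the 158 reporters called higher per array, the 72 called lower and all 1993 tested; CtrlF0 array 1 is the doubled array. The higher set had medians of 0.54 to 0.91 in ZnF0 and of 0.28 to 0.73 in CtrlF1, and the lower set was below 0 in every array of both.

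Against CtrlF1, no reporter passed: 0 of 2174 in limma (0.00 percent), with 272 at an unadjusted p under 0.05 and a smallest adjusted p of 0.0771. This comparison shares the ZnF0 arrays with the first one. The median size of change over reporters was 0.13 in ZnF0 against CtrlF1, 0.25 in ZnF0 against CtrlF0 and 0.20 in CtrlF1 against CtrlF0. That last contrast, between unexposed groups, is the difference between the ZnF0 contrasts. It also gave 0 calls of 1996 in limma, with 420 at an unadjusted p under 0.05. The count against CtrlF1 was 6 without ZnF0 array 2 and 15 without CtrlF1 array 2. The 158 higher reporters had a median change of 0.21 against CtrlF1 and the 72 lower ones -0.19, beside 0.01 over all reporters tested. Of the 1900 reporters with a value in all arrays of the 3 groups, ZnF0 lay above every control array of both generations in 157 (8.26 percent). It lay below every one in 77 (4.05 percent). Against CtrlF0 alone, ZnF0 lay above both arrays in 495 (26.1 percent) and below both in 430 (22.6 percent). Of the 157 and 77, 51 and 26 were among the called reporters with complete values, 153 higher and 71 lower. Of all tested, 7.93 percent were called higher and 3.61 percent lower. Calls and counts use the same ZnF0 and CtrlF0 values, so their overlap was set in part in advance, and nothing is read from it.

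Between Zn(+)F2 and CtrlF2 a limma fit with the labelling dye as a term called 1 of 2242 reporters (0.0446 percent), with 236 at an unadjusted p under 0.05. The called reporter, EBT_DamaMol_ASP6 E1, named because it was the only one, had 5.53, 6.04 and 6.27 in Zn(+)F2, against 0.94, 0.56 and 0.65 in CtrlF2. The call was lost with quantile normalization, with a trend and robust prior, and without Zn(+)F2 array 1 or 2 or CtrlF2 array 1 or 2. In the first generation it showed no such gap, with 0.03, -0.29 and 0.06 in ZnF0, against 0.22 and 0.03 in CtrlF0. The arrays of Zn(+)F2 and CtrlF2 were less regular than those of ZnF0, CtrlF0 and CtrlF1, with values down to -45.1 and up to 23.1, and array medians of 0.31 to 0.35 with Cy5 and -0.40 to -0.31 with Cy3. The part of these in the F2 values was not tested.

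The reporters called lower in ZnF0 were mostly lower in the F2 contrast too, which shares no sample array with the first. Of the 72, 64 were lower in Zn(+)F2 than in CtrlF2, with a median of -0.32, beside 1030 of all 1980 reporters and a median of -0.01. The count was 61 of 72 within the Cy5 arrays alone and 61 of 72 within the Cy3 arrays alone. Over all reporters, 969 of 1970 were lower within Cy5 and 1092 of 1980 within Cy3. Cy5 held 2 arrays of Zn(+)F2 and 1 of CtrlF2, and Cy3 held 1 and 2. Each dye thus rests on 1 array in 1 of the groups, and reporters are not replicates of a group. Zn(+)F2 was sampled at 21 days and CtrlF2 at 20 days, so zinc and age differ together here too. Of the reporters called higher, 106 of 156 were higher in Zn(+)F2, with a median of 0.35, beside 950 of all 1980. Here the dyes differed. Within Cy5, 135 of 156 were higher, beside 1001 of all 1970, with medians of 0.56 and 0.01. Within Cy3, 74 of 156 were higher, beside 888 of all 1980, with medians of -0.08 and -0.06. The Cy3 shares were close, at 47.4 and 44.8 percent. Over all 1980 reporters the F0 and F2 zinc changes had a Spearman correlation of 0.30 and a Pearson correlation of 0.12. These points share the reference pool and the array design. A test of the difference between the zinc changes of the generations, with dye as a term, passed for 1 of 1980 reporters in limma, EBT_DamaMol_ASP6 E1, with 228 at an unadjusted p under 0.05.

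Identifiers of 2248 reporters hold the token Ene, Mol or Rep and a number after ASP, with a well; what the tokens stand for is not given. In the authors' deposited table, 126 of 751 Ene reporters were higher (16.8 percent) and 176 lower (23.4 percent). Of 752 Mol reporters, 143 were higher (19.0 percent) and 89 lower (11.8 percent). Of 709 Rep reporters, 105 were higher (14.8 percent) and 99 lower (14.0 percent). Over all reporters tested the shares were 16.8 and 16.4 percent. Per array, higher calls outnumbered lower ones in each token, with 50 and 36 for Ene, 70 and 15 for Mol and 38 and 21 for Rep. These were 7.08 and 5.10 percent of Ene, 10.4 and 2.23 percent of Mol and 6.28 and 3.47 percent of Rep. Over all reporters tested per array the shares were 7.93 and 3.61 percent. Within Ene the direction turned with the ASP number, a split chosen after its values were seen. In the authors' deposited table, ASP1 to ASP4 had 98 of 373 higher (26.3 percent) and 45 lower (12.1 percent). ASP5 to ASP8 had 28 of 378 higher (7.41 percent) and 131 lower (34.7 percent). The same turn was present per array, with 37 higher and 10 lower in ASP1 to ASP4 and 13 higher and 26 lower in ASP5 to ASP8. These were 10.7 and 2.89 percent of the first set and 3.61 and 7.22 percent of the second.

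The Ene reporters of ASP5 to ASP8 had array medians of -0.05, -0.05 and -0.06 in ZnF0, against 0.17 and 0.09 in CtrlF0 and 0.04, 0.01 and -0.00 in CtrlF1. Those of ASP1 to ASP4 had 0.14, 0.07 and 0.15 in ZnF0, against 0.04 and 0.01 in CtrlF0 and 0.15, 0.14 and 0.14 in CtrlF1. ZnF0 was below both control groups in the first set and above CtrlF0 in the second. The ASP5 to ASP8 reporters were also brighter, with a median average log2 expression of 8.44, against 7.46 in ASP1 to ASP4. The authors' deposited table called 48 higher and 8 lower in the dimmest 25 percent of reporters, and 114 higher and 196 lower in the brightest 25 percent. Per array, calls in both directions were more numerous in the brightest 25 percent, with 65 higher and 41 lower, against 20 higher and 2 lower in the dimmest. The part of brightness, or of where reporters lie on the array, in the turn within Ene was not tested. Of the 189 Mol reporters of ASP4 and ASP5, also chosen after their values were seen, 54 were called higher and 11 lower in the authors' deposited table. These were 28.6 and 5.82 percent, against 16.8 and 16.4 percent of all reporters tested.

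**Figure D5:**
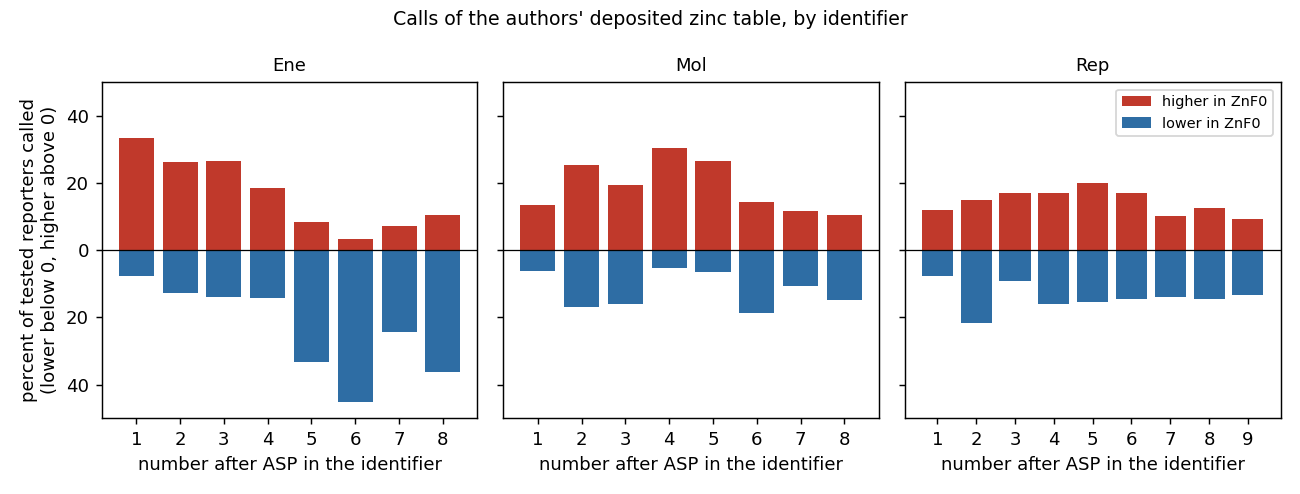
Percent of tested reporters called higher (bars above 0) and lower (bars below 0) in ZnF0 against CtrlF0 in the authors' deposited table, by the token (panels) and the number after ASP (x axis) of the identifier. In Ene, higher calls were 33.3 percent in ASP1 and 3.23 percent in ASP6, and lower calls were 7.53 percent in ASP1 and 45.2 percent in ASP6.

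Precision followed brightness in the authors' deposited table. With reporters cut into 4 equal bins of average expression, the share called was 10.1 percent in the dimmest bin, then 25.8 and 41.3 percent, and 55.9 percent in the brightest. The median standard error was 0.286 in the dimmest bin and 0.0954 in the brightest. Per array the share called ran from 5.64 percent in the dimmest bin to 20.0 percent in the brightest, with median standard errors of 0.191 and 0.167. Of the 227 reporters tested in the authors' deposited table and not per array, 28 were called there, and their median average log2 expression was 5.33, against 7.60 for those tested per array. For a reporter that did not pass, no change was detected with these arrays, which does not show that there was none. In the authors' deposited table the standard errors were largest for dim reporters.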

How the data were processed

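RNA of pooled whole adults was measured on 2-colour spotted cDNA arrays against a reference pool. The authors deposited log2 fold changes, average log2 expression, t and B scores, p-values and adjusted p-values. These came from limma (no version named), per the submitters' processing notes. The value table made from the series matrix holds 1 log2 ratio per reporter and array; the authors' normalization, scale and direction are not stated. It was read as log2 of sample over reference because differences of group means followed the deposited log2 changes (r = 0.96). The direction of those changes is itself read from a name, and the arrays behind this match were all Cy5. The match therefore cannot try the direction of the Cy3 arrays, on which the F2 contrast rests in part. The lowest correlation with an array of the same dye was -0.32 (ZnF0 sample 1 with CtrlF2 sample 3); the labels state the dyes, so the direction was kept.

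Samples were grouped by their labels; no label ties the samples to separate cultures, so p-values measure a spread that may be technical. CtrlF0 was planned with 3 arrays and tested with 2, since samples 1 and 3 held the same values; whether the deposited table used a further array is not known. The values per array were fitted with limma 3.58.1 (R 4.3.3), lmFit and eBayes, Benjamini-Hochberg over all reporters with at least 2 values in each group, threshold 0.05; the number of arrays limits the precision. The Zn(+)F2 fit had a dye term. Zn(+)F1 was not compared, since dye and zinc coincide there. The fit was tested on simulated data. The members, gene groups and tests were chosen with earlier results of these data known. Named reporters were grouped by name; values in each array are given for those called in either analysis, and for the 2 unnamed reporters that rose most and the 2 that fell most among those called in both without overlap. Named reporters given beyond these were chosen after their values were seen. Alternatives covered scaling, filters, spread, blocks and leaving out each array.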

Additional observations from a re-analysis of the deposited data

Results flagged for a closer look

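The zinc changes of EBT_DamaMol_ASP6 E1 differed between the F0 and F2 generations in a limma fit over ZnF0, CtrlF0, Zn(+)F2 and CtrlF2 with dye as a term (adjusted p = 0.000214). The change was -0.19 in ZnF0 against CtrlF0 (adjusted p = 0.502) and 5.33 in Zn(+)F2 against CtrlF2 (adjusted p = 0.0257), and all 3 Zn(+)F2 arrays were above all 3 CtrlF2 arrays. The call in Zn(+)F2 against CtrlF2 was lost with quantile normalization, with a trend and robust prior, and without Zn(+)F2 array 1 or 2 or CtrlF2 array 1 or 2; the difference between the generations was not refitted under these settings. The arrays of Zn(+)F2 and CtrlF2 hold values as far out as -45.1 and 23.1.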

How the results depend on the processing

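The 738 calls of the authors' deposited table became 167 with an absolute log2 change of at least 1 and 101 with t divided by its robust SD; 3 further alternatives gave 546 to 742. The 230 calls per array became 107 with the replicate number as a block (80 higher and 27 lower), 111 with all groups in 1 fit with dye (28 higher and 83 lower) and 577 with the doubled control array counted as 2 samples, an alternative chosen after seeing the data. Leaving out each array gave 0 to 289 calls; without 1 CtrlF0 array, the lone array was assumed to vary like the others. The 7 other alternatives gave 214 to 343 calls, up to 1.5 times the count. Replicate numbers did not pair the arrays: deviations of same-numbered ZnF0 and CtrlF0 arrays correlated at -0.12 and -0.15, of ZnF0 and CtrlF1 arrays at -0.26 to -0.03, and of Zn(+)F2 and CtrlF2 arrays at -0.14 to 0.03. The 0 calls of ZnF0 against CtrlF1 became 1 with the block, 4 with quantile normalization and 0 to 15 without single arrays. The 1 call of Zn(+)F2 against CtrlF2 became 0 with the block, with quantile normalization and with a trend and robust prior (199, 190 and 224 at an unadjusted p under 0.05 in limma), and 0 to 6 without single arrays. For the 9 reporters given by array, all 79 values under other settings kept their direction; 16 lost the call, 6 gained it and 57 stayed on their side of the threshold. No cause of these shifts was tested.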
